A study of Mus musculus with 6 samples.

Results

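The integrated stress response is the programme that cells start when starvation for amino acids, misfolded proteins, viral RNA or lack of heme halts general protein synthesis. Its transcripts were followed here through 10 genes taken by name, whatever their level: the transcription factor genes Atf4, Atf5 and Ddit3, the feedback genes Ppp1r15a and Trib3, the metabolic genes Asns and Chac1, the genes Sesn2 and Ddit4 that restrain growth, and the hormone gene Fgf21. The list was made with earlier results of these data known. All 10 were found among the 37991 gene IDs of the count table, and all 10 were among the 14686 genes tested. The libraries were poly(A)-selected RNA from the livers of 12-week-old male mice, 3 C57BL/6J wild types (WT) and 3 mice of the same strain without Zpbp2 (Zpbp2 KO, B6.Zpbp2-/-), with no treatment named for either group. The sources used here do not say how the Zpbp2 allele was made or from how many founders.

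The response runs through kinases that each sense a different stress and phosphorylate the translation factor eIF2. Most translation then slows, while the mRNA of ATF4 is translated more, and ATF4 with its partners switches on genes for amino acid supply, for antioxidant defence and, under lasting stress, for cell death. Much of the control lies in translation, so the levels below are of mRNA and not of ATF4 protein or of eIF2 phosphorylation. In the liver the programme is known for its answer to amino acid shortage and for the secretion of FGF21, and several of its target genes also respond to other signals, such as PPARα for Fgf21, p53 for Sesn2 and glucocorticoids for Ddit4.

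Total counts ran from 37904891 to 52955687 per library. Zpbp2 gave 4, 13 and 7 counts in the WT libraries and 0 in each Zpbp2 KO library, where a count of 0 allows up to 3 counts. Markers of hepatocytes, the main cell type of liver, were abundant in every library, with 10 genes summing to 108638 to 114422 CPM (counts per 1000000 of the scaled library size) in WT and to 116460 to 122819 CPM in Zpbp2 KO, slightly higher and without overlap. That sum is weighted toward its most abundant gene, as a single marker reached up to 76967 CPM. Taken singly, 8 of the 10 had a log2 fold change above 0 and 2 below, and the groups overlapped for each gene. Transcripts of tissues outside the liver stood apart in single libraries. Pancreas enzyme genes (5 of 5 listed) summed to 119 CPM in Zpbp2 KO replicate 1 and to 0.0191 to 0.307 CPM in the other 5 libraries, and skeletal muscle genes (4 of 4 listed) summed to 88.8 CPM in WT replicate 1 and to 0.0209 to 0.153 CPM in the others. Adipocyte markers (4 listed) were low throughout but also uneven, at 1.37 CPM in WT replicate 1, 3.45 in Zpbp2 KO replicate 1 and 1.32 in Zpbp2 KO replicate 2 against 0.0374 to 0.262 in the other 3 libraries. Where leaving out WT replicate 1 or Zpbp2 KO replicate 1 moved a member's value by over 1.5 times, the value without it is also given. The summed markers of Kupffer cells (235.7 to 336 CPM in WT, 129.7 to 429.8 in Zpbp2 KO), T and NK cells (1.89 to 4.27 and 2.89 to 4.89), B cells (3.42 to 5.87 and 4.17 to 8.45), endothelial cells (163 to 237 and 106 to 266), stellate cells (185 to 237.5 and 160 to 240), cholangiocytes (49.9 to 72.8 and 44.2 to 78.4) and erythroid cells (146 to 207 and 156 to 294) overlapped between the groups. Zpbp2 KO replicate 2 was the lowest of the 6 libraries for Kupffer, endothelial and stellate markers and the highest for hepatocyte and erythroid markers. The part of all these markers in the results was not tested, and in bulk tissue fewer cells of a type and less RNA per cell cannot be told apart.

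The 10 genes did not move as a block between the genotypes. Chac1, which encodes an enzyme that breaks down glutathione, stood 3.32-fold higher in Zpbp2 KO livers, and Sesn2, which encodes a leucine-sensing brake on the growth kinase mTORC1, stood 1.76-fold lower. Ppp1r15a stood 1.27-fold lower, and the groups overlapped for the other 7. Atf4 itself, the centre of the programme, differed by a log2 fold change of -0.06 (95% confidence interval -0.29 to 0.17). By edgeR (quasi-likelihood test, Benjamini-Hochberg over all tested genes) 0 of the 10 were called, as against 0.0136% of all tested genes. DESeq2 called 2 of the 10, Chac1 as higher and Sesn2 as lower, where it called 0.518% of the 14681 genes to which it gave an adjusted p, 0.184% as higher and 0.334% as lower. At an unadjusted p below 0.05 edgeR had 1 member higher and 2 lower (5.79% of tested genes, 2.86% higher and 2.93% lower), and the groups did not overlap for the same 3 genes, 1 higher and 2 lower (11.6% of tested genes, 5.56% higher and 6.01% lower). Of the 10, 4 lay above 0 and 6 below, their median log2 fold change being -0.06, beside 0.01 over all tested genes. As the list was made with earlier results of these data known, the shares set beside it are a description only. Without WT replicate 1 and Zpbp2 KO replicate 1, which left 2 livers per group, edgeR called 0 members and 0 genes in all. In that reduced set 2 members were higher (Chac1 and Ddit3) and 2 lower (Sesn2 and Asns) at an unadjusted p below 0.05, beside 4.89% of tested genes. These 4 and Ppp1r15a, 5 members in all, showed no overlap, beside 32.5% of tested genes. For Chac1, Sesn2 and Ppp1r15a the lack of overlap there follows from that in the full set.

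**Figure D1:**
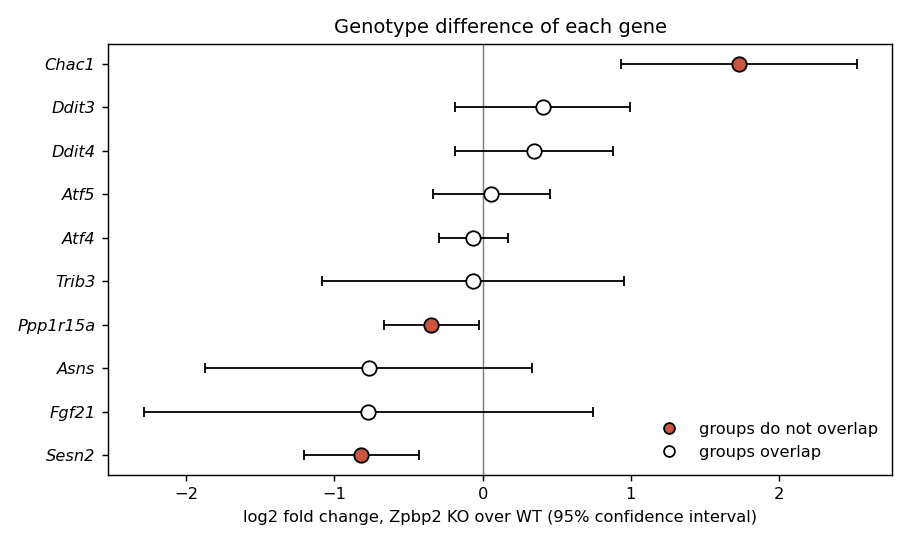
Log2 fold change of Zpbp2 KO over WT (x axis) for each of the 10 genes (y axis), with bars for the 95% confidence interval from edgeR's fit on 3 livers per group and filled points where the groups do not overlap. Chac1 lies at 1.73 and Sesn2 at -0.82, while the intervals of 7 genes span 0.

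The stretches before the transcription starts of 4 members are shown because Chac1 and Sesn2 lay in opposite directions between the genotypes, while Asns and Fgf21, like Chac1, carry the letters of a C/EBP-ATF response element, the composite site at which ATF4 is known to act. Each is the 250 bases before the start, from RefSeq on GRCm38.p6, read 5′ to 3′ on the gene's own strand. Capitals mark matches on either strand to TGATGNAA, the core of that element, or to TGACGCAA, a close variant of it.
Chac1 (chr2:119350992-119351241, plus strand): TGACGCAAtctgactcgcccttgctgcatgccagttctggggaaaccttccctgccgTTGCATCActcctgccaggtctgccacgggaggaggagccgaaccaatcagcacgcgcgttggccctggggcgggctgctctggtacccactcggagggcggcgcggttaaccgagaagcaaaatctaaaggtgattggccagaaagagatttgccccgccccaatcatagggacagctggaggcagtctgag
Sesn2 (chr4:132510457-132510706, minus strand): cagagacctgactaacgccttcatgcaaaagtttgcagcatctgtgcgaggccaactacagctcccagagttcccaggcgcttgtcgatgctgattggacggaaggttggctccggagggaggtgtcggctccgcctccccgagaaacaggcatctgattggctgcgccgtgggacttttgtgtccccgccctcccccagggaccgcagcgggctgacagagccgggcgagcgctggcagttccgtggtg
Asns (chr6:7693210-7693459, minus strand): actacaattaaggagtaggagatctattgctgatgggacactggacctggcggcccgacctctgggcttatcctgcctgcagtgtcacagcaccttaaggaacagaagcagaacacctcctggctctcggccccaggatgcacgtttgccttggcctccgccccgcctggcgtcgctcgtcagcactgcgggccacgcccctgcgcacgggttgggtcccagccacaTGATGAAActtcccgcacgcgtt
Fgf21 (chr7:45615491-45615740, minus strand): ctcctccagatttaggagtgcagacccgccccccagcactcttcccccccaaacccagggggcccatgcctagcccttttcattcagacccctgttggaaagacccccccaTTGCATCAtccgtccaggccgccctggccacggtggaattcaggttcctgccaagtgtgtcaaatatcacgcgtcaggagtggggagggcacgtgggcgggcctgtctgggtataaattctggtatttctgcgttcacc
The Chac1 stretch held TTGCATCA, the reverse complement of the core, 193 to 186 bases upstream of the start, and TGACGCAA at its far end. The Fgf21 stretch held the same TTGCATCA 139 to 132 bases upstream, and Asns held TGATGAAA 23 to 16 bases upstream. The Sesn2 stretch held neither set of letters in these 250 bases. TGATGNAA was present in 3 of the 10 members and, counted over genes in the same way, in 3.91% of 27025 genes with a stretch of the same length, and TGACGCAA in 1 member and 0.507% of genes. The cyclic AMP response element TGACGTCA, which is its own reverse complement and overlaps neither of the other motifs in these members, was found 12 to 5 bases upstream in Ppp1r15a, and in 1.77% of genes. The 3 members with TGATGNAA had log2 fold changes of 1.73 (Chac1), -0.77 (Asns) and -0.77 (Fgf21).

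Among the transcription factors, Atf4 (ENSMUSG00000042406, chromosome 15) was the steadiest member. It stood at 103, 113 and 99.9 CPM in WT replicates 1 to 3, and the knockouts in the same order at 98.6, 109.9 and 93.6 CPM. The groups overlapped in part, as Zpbp2 KO replicate 2 lay within the WT range and replicates 1 and 3 below it. Means were 105 ± 6.87 (WT) and 101 ± 8.34 CPM (Zpbp2 KO, SD, n = 3), with a log2 fold change of -0.06 ± 0.101 (SE, adjusted p = 0.910 by edgeR). Its spread within groups, an SD of 0.106 on the log2 CPM scale, was larger than that of only 15.7% of tested genes.

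Atf5 (ENSMUSG00000038539, chromosome 7) encodes an ATF4-related factor tied to the stress response of mitochondria and is known to be abundant in liver. It stood at 385, 366 and 399.6 CPM in the WT livers and at 465, 447 and 287 CPM in Zpbp2 KO. Replicates 1 and 2 of the knockout lay above every WT liver and replicate 3 below every one of them. The log2 fold change was 0.06 ± 0.174 (adjusted p = 0.958 by edgeR), and it was 0.25 without Zpbp2 KO replicate 3 and -0.06 without Zpbp2 KO replicate 1. Atf5 shares exon sequence with genes on the opposite strand, Il4i1 among them, and whether the counting used strand is unknown.

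Ddit3 (ENSMUSG00000025408, chromosome 10) encodes CHOP, the factor that links lasting stress to cell death. Its level was low in all livers, at 5.0, 3.70 and 4.61 CPM in the WT livers and 4.2, 8.07 and 5.35 CPM in Zpbp2 KO. Zpbp2 KO replicate 2 was the highest of the 6 livers, and Zpbp2 KO replicate 1 lay within the WT range. Its log2 fold change was 0.40 ± 0.256 (adjusted p = 0.798 by edgeR). Without Zpbp2 KO replicate 2 it was 0.11, and without Zpbp2 KO replicate 1 it was 0.60 (unadjusted p = 0.0437, adjusted p = 0.958 by edgeR). Without that liver and WT replicate 1 it was 0.69. Ddit3 also shares exon sequence with Mars on the opposite strand, whose own log2 fold change was 0.00 ± 0.10.

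Ppp1r15a (ENSMUSG00000040435, chromosome 7) encodes GADD34, the subunit that brings phosphatase 1 to eIF2 and so ends the response. WT replicates 1 to 3 stood at 17.7, 14.7 and 13.0 CPM and Zpbp2 KO replicates at 11.4, 12.3 and 12.0 CPM. The 3 knockout livers lay close together and below all WT livers, with means of 15.1 ± 2.36 and 11.9 ± 0.504 CPM (SD, n = 3). The log2 fold change was -0.35 ± 0.140, with an adjusted p of 0.798 by edgeR and 0.817 by DESeq2. It was -0.22 without WT replicate 1, the liver with muscle transcripts and the highest Ppp1r15a, and -0.19 without that liver and Zpbp2 KO replicate 1. Its exons overlap those of Tulp2 on the opposite strand. The constitutive partner gene Ppp1r15b, which holds eIF2 phosphorylation low in unstressed cells, had a log2 fold change of -0.13 ± 0.116.

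Trib3 (ENSMUSG00000032715, chromosome 2) encodes a pseudokinase that is induced by ATF4 and CHOP and feeds back on them and on AKT. It ran over a 3.25-fold range within WT, at 13.7, 4.2 and 9.49 CPM, and over a 2.54-fold range within Zpbp2 KO, at 9.91, 4.56 and 11.6 CPM. In each genotype replicate 2 was the lowest liver. The groups overlapped throughout, with a log2 fold change of -0.07 ± 0.445 (adjusted p = 0.984 by edgeR) and a 95% confidence interval of -1.09 to 0.95. The sign turned without WT replicate 1 (0.35) and without Zpbp2 KO replicate 2 (0.24), and the value was -0.17 without Zpbp2 KO replicate 1. Its relatives Trib1 (-0.15 ± 0.167) and Trib2 (0.09 ± 0.265) had values near 0 as well.

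Chac1 (ENSMUSG00000027313, chromosome 2) encodes a gamma-glutamyl cyclotransferase that cleaves glutathione, and is a well known target of ATF4 under amino acid stress. The libraries held 54, 133 and 47 counts of it in WT and, in replicate order, 320, 198 and 251 in Zpbp2 KO, or 1.03, 2.48 and 1.23 CPM and 6.69, 4.34 and 4.81 CPM. Every knockout liver lay above every WT liver, and the lowest knockout value was well above the highest WT value. Means were 1.58 ± 0.788 CPM and 5.28 ± 1.24 CPM (SD, n = 3), and the log2 fold change was 1.73 ± 0.348 with a 95% confidence interval of 0.93 to 2.53. The adjusted p was 0.449 by edgeR (unadjusted p = 0.000976) and 0.000306 by DESeq2, so the call rests on the tool. Chac1 was highest in Zpbp2 KO replicate 1, the liver with pancreas transcripts, and lowest in WT replicate 1, the liver with muscle transcripts. It came to 1.52 ± 0.377 without the first, 1.49 ± 0.348 without the second and 1.28 ± 0.361 without both (unadjusted p = 0.0122 by edgeR on 2 livers per group). The lack of overlap in that reduced set follows from the full set and adds nothing, and 32.5% of tested genes showed it there. Chac2, its constitutive relative, stood at 25.2, 23.5 and 24.6 CPM in the WT livers and 26.5, 34.0 and 26.2 CPM in Zpbp2 KO, also without overlap (0.24 ± 0.126, adjusted p = 0.798 by edgeR).

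Asns (ENSMUSG00000029752, chromosome 6) encodes asparagine synthetase, the classic gene of the amino acid response. It stood at 2.36, 6.72 and 7.81 CPM in the WT livers and at 5.16, 2.83 and 1.90 CPM in Zpbp2 KO. WT replicate 1 was low for its group and Zpbp2 KO replicate 1 high for its group, so the groups overlapped. The log2 fold change was -0.77 ± 0.481 (adjusted p = 0.798 by edgeR), with a 95% confidence interval of -1.87 to 0.33. Pancreas transcripts were present in Zpbp2 KO replicate 1 and muscle transcripts in WT replicate 1. Without the first the log2 fold change of Asns was -1.25 ± 0.50, without the second -1.14 ± 0.380, and without both -1.62 ± 0.271, with no overlap left between 2 livers and 2 (unadjusted p = 0.000999, adjusted p = 0.398 by edgeR). Leaving out both was chosen after the data were seen. It removes the lowest WT liver and the highest knockout liver for Asns, which by itself widens the difference. The lack of overlap in that reduced set is thus a description only, and 32.5% of tested genes showed it there. Leaving out other livers moved the log2 fold change of Asns toward 0. It was -0.48 ± 0.521 without WT replicate 3, the highest liver, and -0.49 ± 0.511 without Zpbp2 KO replicate 3, the lowest.

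Sesn2 (ENSMUSG00000028893, chromosome 4) encodes sestrin 2, which holds back mTORC1 when leucine is scarce and is induced by ATF4, p53 and NRF2. WT replicates 1 to 3 held 795, 574 and 432 counts and Zpbp2 KO replicates 330, 292 and 406, or 15.2, 10.7 and 11.3 CPM and 6.90, 6.4 and 7.78 CPM. All knockout livers lay below all WT livers. Means were 12.4 ± 2.41 and 7.03 ± 0.697 CPM (SD, n = 3), which gave -0.82 ± 0.169 on the log2 scale, with a 95% confidence interval of -1.21 to -0.43. The adjusted p was 0.449 by edgeR (unadjusted p = 0.00116) and 0.00749 by DESeq2. Without WT replicate 1, the highest liver, the log2 fold change was -0.65 ± 0.155 (unadjusted p = 0.00362 by edgeR), and without that liver and Zpbp2 KO replicate 1 it was -0.64 ± 0.182. The other sestrin genes overlapped between the groups, Sesn1 with a log2 fold change of 0.13 ± 0.224 and Sesn3 with -0.33 ± 0.268.

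Chac1 and Sesn2 moved apart within each library, which can be read without any scaling between libraries. For each count of Sesn2 there were 0.0679, 0.232 and 0.109 counts of Chac1 in WT, against 0.970, 0.678 and 0.618 in the Zpbp2 KO libraries. The ranges were far apart. The pair was chosen after its values were seen, so this ratio is a description and carries no test.

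Ddit4 (ENSMUSG00000020108, chromosome 10) encodes REDD1, which restrains mTORC1 through the TSC complex. It stood at 4.63, 6.52 and 6.92 CPM in the WT livers and at 6.67, 9.998 and 6.32 CPM in Zpbp2 KO. Only Zpbp2 KO replicate 2 lay above the WT range. On the log2 scale the difference was 0.35 ± 0.232 (adjusted p = 0.798 by edgeR), and it was 0.11 without Zpbp2 KO replicate 2. It was 0.19 without WT replicate 1, the liver with muscle transcripts and the lowest Ddit4, and 0.28 without that liver and Zpbp2 KO replicate 1. Ddit4l, its relative, had a value of -0.15 ± 0.243.

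Fgf21 (ENSMUSG00000030827, chromosome 7) encodes the liver hormone that signals fasting and amino acid shortage. It was the most scattered member, at 4.10, 1.53 and 0.917 CPM in the WT livers and 0.774, 2.52 and 0.594 CPM in Zpbp2 KO. WT replicate 1 and Zpbp2 KO replicate 2 were high, and the other 4 livers lay between 0.594 and 1.53 CPM. The log2 fold change of -0.77 ± 0.661 (adjusted p = 0.837 by edgeR) was 0.06 without WT replicate 1, the liver with muscle transcripts, -0.51 without Zpbp2 KO replicate 1, the liver with pancreas transcripts, and -1.69 without Zpbp2 KO replicate 2. The related hormone genes Fgf15 and Fgf23 had 0 counts in all 6 libraries, which allows up to 0.0560 to 0.0786 CPM per library.

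**Figure D2:**
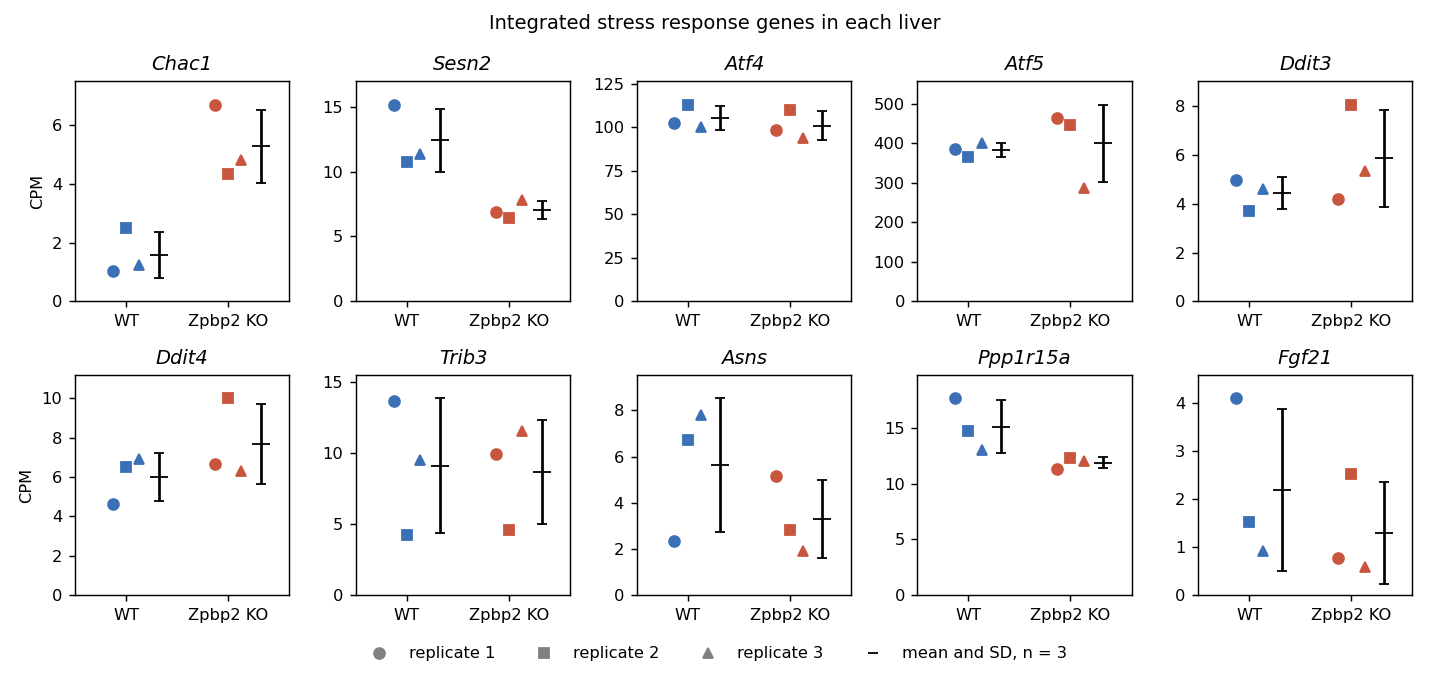
CPM (y axis, from 0 in each panel) of the 10 genes in each liver, with marker shapes for the replicates and bars for the mean and SD of 3 livers. Chac1, Sesn2 and Ppp1r15a show no overlap between WT and Zpbp2 KO, and Fgf21, Asns and Trib3 vary widely within both groups.

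Levels of different genes were compared per kilobase of exon, using the union of each gene's exons in GENCODE M21. In WT livers Atf5 was highest at 192 ± 8.57 CPM per kilobase, and Atf4 followed at 44.6 ± 2.92 CPM per kilobase (SD, n = 3), with no overlap between them or with the next gene. The other 8 members formed a run of low levels from Ppp1r15a (5.15 ± 0.802) through Trib3 (4.29 ± 2.23), Sesn2 (3.57 ± 0.693), Ddit4 (3.43 ± 0.696), Ddit3 (2.59 ± 0.389), Fgf21 (2.30 ± 1.78) and Asns (2.06 ± 1.05) to Chac1 (0.966 ± 0.481), all in CPM per kilobase. Within that run each gene's range over WT livers overlapped that of its neighbour. In Zpbp2 KO livers Atf5 and Atf4 kept the first ranks, Chac1 (3.23 ± 0.760) went from rank 10 to rank 7 and Sesn2 (2.02 ± 0.200) from rank 5 to rank 8. Ranks depend on the length used, and the sources do not state whether reads were counted over whole exons or over coding sequence alone. With coding length 6 of the 10 members held the same rank in WT, and Ddit3 (8.80 ± 1.32 CPM per kilobase of coding sequence) took rank 3 and Ppp1r15a (7.67 ± 1.20) rank 7.

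The members also differed in how much they varied between livers of 1 genotype. The SD of log2 CPM within groups ran from 0.106 for Atf4 to 1.07 for Fgf21, with a median of 0.353 over the 10 members, beside 0.207 over all tested genes. For 8 of the 10 it was above the median of all tested genes. Fgf21, Asns (0.830) and Trib3 (0.794) had a larger SD than 99.4%, 98.3% and 97.9% of tested genes, and the widest confidence intervals of the 10. The counts behind these values ran from 31 (Fgf21 in Zpbp2 KO replicate 3) to 22225 (Atf5 in Zpbp2 KO replicate 1).

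No liver was high or low for the whole set. WT replicate 1 held the highest value of 4 members, Sesn2, Trib3, Ppp1r15a and Fgf21, and the lowest of Chac1 and Ddit4. Zpbp2 KO replicate 3 held the lowest value of 4 members, Atf4, Atf5, Asns and Fgf21, and the highest of 0. Zpbp2 KO replicate 2 was highest for Ddit3 and Ddit4. Relative to each gene's mean over the 6 livers, between 3 (Zpbp2 KO replicate 3) and 6 (Zpbp2 KO replicate 2) of the 10 members were above the mean in any liver.

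**Figure D3:**
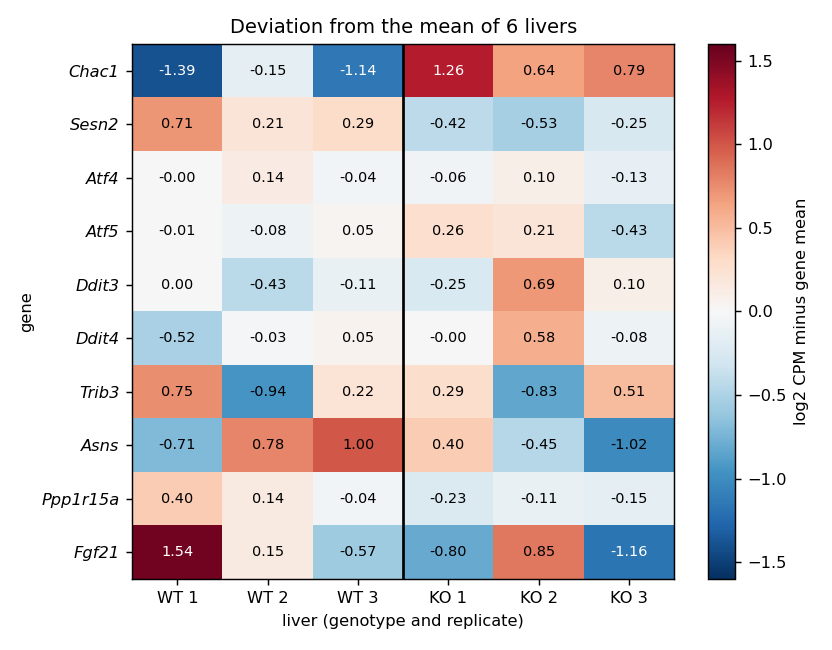
Log2 CPM of each gene (rows) in each liver (columns, WT replicates left of the line and Zpbp2 KO replicates right of it) minus that gene's mean over the 6 livers. Only Chac1 and Sesn2 among the 10 rows have the same sign in all 3 livers of a genotype and the opposite sign in all 3 of the other.

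The wider pathway was followed through 13 further lists, with 158 genes beside the members. Of the 152 that were tested, 79 lay above 0 and 73 below, the median log2 fold change being 0.00. EdgeR called 0 of them and DESeq2 3 (Atf3, Gclc and Trp53inp1, all lower). DESeq2 called 0.518% of all genes to which it gave an adjusted p, 0.334% as lower. At unadjusted p below 0.05 edgeR had 8 lower and 3 higher, beside 2.93% of all tested genes lower and 2.86% higher. The 3 higher include Stc2, which was tested through its knockout counts, so its place there is a description only. No overlap between the groups was seen for 11.8% of the 152, near the 11.6% over all tested genes. Without WT replicate 1 and Zpbp2 KO replicate 1, 5 were lower and 3 higher at unadjusted p below 0.05, and edgeR called 0. Those at unadjusted p below 0.05 were 5.26% of the 152, beside 4.89% of all tested genes.

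Upstream of ATF4, the kinases that phosphorylate eIF2, the subunits of eIF2 and of its exchange factor eIF2B, and the phosphatase subunits had a median log2 fold change of 0.01 over 18 genes, with 10 above 0, 0 called by edgeR or DESeq2 and 0 at an unadjusted p below 0.05. Their values spanned -0.30 to 0.21. The smallest p-values were those of Eif2s3x, the gamma subunit of eIF2 (-0.30 ± 0.152), and Ppp1cb, a catalytic subunit of phosphatase 1 (-0.13 ± 0.103). Ppp1cb alone of the 18 showed no overlap between the groups, beside 11.6% of all tested genes.

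Of 10 partner and related transcription factors, 4 lay above 0 and 6 below, and edgeR called 0. By edgeR 2 were lower at an unadjusted p below 0.05, beside 2.93% of all tested genes. DESeq2 called 1 as lower, beside 0.334% of all genes to which it gave an adjusted p. That gene, Atf3, a stress-induced repressor downstream of ATF4 that is also an immediate early gene, stood at 3.18, 1.94 and 2.75 CPM in the WT livers and at 1.25, 1.32 and 1.05 CPM in Zpbp2 KO. All knockout livers lay below all WT livers (-1.12 ± 0.248, adjusted p = 0.475 by edgeR and 0.0259 by DESeq2). Nfe2l2, which encodes NRF2, the antioxidant regulator that can also induce Sesn2, had no overlap either (-0.41 ± 0.163, adjusted p = 0.798 by edgeR).

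The amino acid arm showed no common direction. Genes of amino acid synthesis driven by ATF4, such as those for serine and proline, had a median of 0.00 over 12 tested genes with 6 above 0, transporters -0.03 over 8 tested genes with 3 above 0, and aminoacyl-tRNA synthetases with the export factor Xpot 0.00 over 13 genes with 7 above 0. By edgeR 1 transporter was lower at an unadjusted p below 0.05, beside 2.93% of all tested genes. EdgeR and DESeq2 called 0 genes of these 3 lists. The synthetases were also the tightest of them, from -0.13 (Lars) to 0.21 (Wars). The glutamine transporter gene Slc38a2 had the smallest p of the transporters, at 213, 163 and 152 CPM in the WT livers and 116, 128 and 149 CPM in Zpbp2 KO, without overlap (-0.42 ± 0.151, adjusted p = 0.798 by edgeR). Aldh1l2 (-0.89 ± 0.435) and Gpt2 (0.21 ± 0.126) had the smallest p of the synthesis genes.

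Of 17 other tested targets, 11 lay above 0, with a median of 0.04 and 0 called by edgeR or DESeq2. By edgeR 2 were higher at an unadjusted p below 0.05 (Gdf15 and Stc2), beside 2.86% of all tested genes. The stress hormone gene Gdf15 stood at 3.53, 4.56 and 2.99 CPM in the WT livers and 7.005, 5.53 and 6.00 CPM in Zpbp2 KO. It lay higher in each knockout liver than in any WT liver (0.74 ± 0.203, adjusted p = 0.677 by edgeR and 0.119 by DESeq2). Stc2, which encodes a secreted stress glycoprotein, had only 9, 7 and 8 counts in the WT libraries and 16, 13 and 17 in Zpbp2 KO. These came to 0.171 ± 0.0395 and 0.315 ± 0.0264 CPM (0.90 ± 0.337, adjusted p = 0.798 by edgeR and 0.973 by DESeq2). Its WT counts lay below the filter's minimum count of 10, so it was tested through its knockout counts. The p and the lack of overlap of Stc2, and its place in the counts above, are therefore a description only.

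Genes that share a function with single members were read in the same way. For glutathione, the substrate of CHAC1, 5 of 9 tested genes lay above 0 (median 0.01). By edgeR 2 were lower at an unadjusted p below 0.05 (Gclc and Oplah), beside 2.93% of all tested genes. The groups did not overlap for 4 lower genes, these 2 among them, and 1 higher gene, beside 6.01% and 5.56% of all tested genes. Gclc, the catalytic subunit of the rate-limiting step of glutathione synthesis, stood at 491, 629 and 581 CPM in the WT livers and at 407, 424 and 341 CPM in Zpbp2 KO, with no overlap (-0.54 ± 0.129, adjusted p = 0.552 by edgeR and 0.0470 by DESeq2), and Oplah, which recycles 5-oxoproline, had -0.25 ± 0.109. For the mTORC1 pathway that sestrins and REDD1 restrain, 12 of 16 genes lay below 0, beside 6922 of all 14686 tested genes. The median was small at -0.12, with 0 genes at an unadjusted p below 0.05 by edgeR and 0 without overlap between the groups. Tsc2 (-0.19 ± 0.111) and Depdc5 (-0.22 ± 0.143) had the smallest p. For the receptors and regulators of FGF21, 5 of 9 lay above 0 (median 0.03). The smallest p was that of Ppara, the fasting receptor that drives Fgf21, at 137, 96.4 and 108 CPM in the WT livers and 65.6, 57.1 and 117 CPM in Zpbp2 KO (-0.51 ± 0.262, adjusted p = 0.798 by edgeR), followed by Creb3l3 (-0.11 ± 0.0990).

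Lists of other inputs to the same members were counted too. Of 12 p53 targets 7 lay below 0 (median -0.02), and Trp53inp1, a p53-induced gene of autophagy and stress defence, stood at 94.7, 109 and 108 CPM in the WT livers and at 48.5, 71.7 and 51.7 CPM in Zpbp2 KO, without overlap (-0.86 ± 0.156, adjusted p = 0.332 by edgeR and 0.000485 by DESeq2). Ccng1 (-0.15 ± 0.0858) had the next smallest p of that list and showed no overlap either. Glucocorticoid receptor targets split 5 and 5 (median -0.08), with the smallest p for Dusp1 (-1.13 ± 0.348) and Tat (-0.43 ± 0.148), and the groups overlapped for both. Chaperones of the endoplasmic reticulum and targets of XBP1 or ATF6, the other branches of the unfolded protein response, lay above 0 in 13 of 14 cases with a small median of 0.11, beside 52.9% of all tested genes above 0. EdgeR and DESeq2 called 0 of these, and edgeR had 1 higher at an unadjusted p below 0.05, beside 2.86% of all tested genes. The smallest p was that of Xbp1 itself (0.41 ± 0.139, adjusted p = 0.798 by edgeR), with Dnajc3, an inhibitor of the eIF2 kinase PERK, at -0.13 ± 0.119. Xbp1 alone of the 14 showed no overlap, beside 11.6% of all tested genes. Its highest WT liver stood at 256.6 CPM and its lowest knockout liver at 257.7 CPM.

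**Figure D4:**
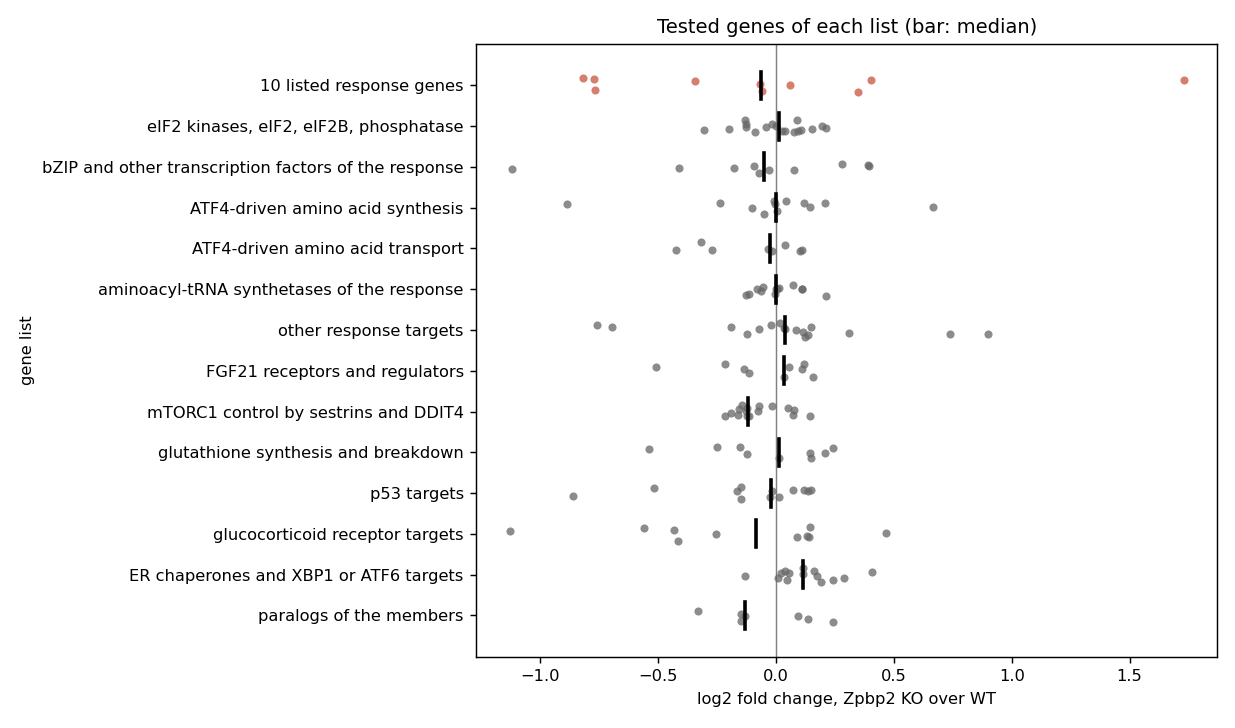
Log2 fold change of Zpbp2 KO over WT (x axis) for every tested gene of the 10 listed response genes and of 13 further lists (y axis), with a bar at each median. Medians lie between -0.13 and 0.11, and Chac1 at 1.73 is the point farthest from 0.

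The genes whose pattern over the 6 livers came nearest to a member were found by the mean absolute difference of log2 CPM after each gene was centred on its own mean. For Chac1 they were the acute phase genes Orm2 (0.385) and Saa1 (0.396), both with higher values in all 3 knockout livers, while Chac1 itself deviated from its mean by 0.896 on average. For Sesn2 they were the creatine transporter gene Slc6a8 (0.10) and Tmem56 (0.110), against a mean deviation of 0.402. For Atf5 the nearest was Kyat3 (0.0352), which encodes a kynurenine aminotransferase and shares the low value in Zpbp2 KO replicate 3, and Cdc34 (0.0575) came next. For Fgf21 the nearest was G0s2 (0.439), an inhibitor of lipolysis, against a mean deviation of 0.845, so no gene compared followed it closely. For the other members the nearest were Snx19 and Fam149a (Atf4), Rrm2 and Cd3eap (Ddit3), Nle1 and Tmed9 (Ddit4), Fam13a and Rnf186 (Trib3), Ypel2 and Fam222a (Asns) and Tbc1d4 and Ppp4r2 (Ppp1r15a), at 0.0184 to 0.234. With so many genes and 6 livers such neighbours are a description only.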

How the data were processed

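Libraries of poly(A) RNA were made with strand-marking chemistry from 250 ng of RNA for each of 6 livers and read for 100 cycles per end, per the labels' protocols. The deposited values are counts, whole numbers per Ensembl gene ID with no normalization. STAR, Picard and HTSeq with build mm9 are named per the submitters' processing notes, while versions, annotation and strand setting are not given in the sources. All 6 columns were matched by title. Symbols came from GENCODE M21 or RefSeq (32919 of 37991 IDs), and coordinates are those of RefSeq promoters on GRCm38.p6, apart from the counts.

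Genes were kept by filterByExpr (minimum count 10) and scaled by TMM, and edgeR 4.0.16 in R 4.3.3 tested Zpbp2 KO against WT with its quasi-likelihood test, two-sided, and Benjamini-Hochberg adjusted over all tested genes (threshold 0.05). CPM use TMM-scaled library sizes, and log2 CPM a prior count of 2. Each SE and interval is that implied by the test. Replicates are separate livers and differed beyond sampling noise (chi-square per gene 18.7 to 94.9). A limit of 3 counts covers counting error only. Scripts were tested on simulated data. Alternatives were DESeq2 1.42.0, limma-voom (limma 3.58.1), other scalings and filters, a replicate block, a robust fit and left-out libraries. The text names all 10 members, the 2 genes with the smallest p of each list, paralogs of members and the 2 nearest patterns per member, of which 1 is not reported here. Other genes were chosen after their values were seen. The members and lists were chosen with earlier results of these data known.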

Additional observations from a re-analysis of the deposited data

How the results depend on the processing

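Of the 10 members, 7 (Chac1, Sesn2, Atf4, Ddit3, Ddit4, Asns and Ppp1r15a) kept the sign of their log2 fold change under all 15 alternatives, 14 of them planned. The number of members called was 0 under every one of them except DESeq2, which called 2. Over all tested genes the count of calls was 2, with 76 by DESeq2 and 12 with no filter on low counts, and 2 to 4 with each library left out in turn, where 4 was reached without Zpbp2 KO replicate 2. Leaving out WT replicate 1 and Zpbp2 KO replicate 1 together, an alternative chosen after seeing the data, gave 0 calls over all tested genes and reversed Atf5 (-0.059), Trib3 (0.25) and Fgf21 (0.32). Trib3 was also reversed by limma-voom (0.017). With each library left out in turn, log2 fold changes ran from -0.063 to 0.25 for Atf5, from -0.41 to 0.35 for Trib3, from -1.69 to 0.06 for Fgf21, from -1.25 to -0.48 for Asns, from 0.11 to 0.60 for Ddit3, from 0.11 to 0.47 for Ddit4, from -0.46 to -0.22 for Ppp1r15a, from -0.13 to -0.0079 for Atf4, from 1.49 to 2.23 for Chac1 and from -0.92 to -0.65 for Sesn2. The adjusted p of Chac1 ran from 0.143 to 0.942 and that of Sesn2 from 0.278 to 0.942 over the left-out libraries by edgeR. The cause of these shifts was not tested. With coding length, 6 members held their rank.

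Replicate numbers were shared by the genotypes in the labels, but same-numbered livers did not deviate together (correlations across genes of 0.142, 0.197 and -0.237), and with the replicate block 0 members and 2 genes in all were called. Depth limits Fgf21 most, with 31 counts in its poorest library.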
